A study of Danio rerio with 6 samples.

Results

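The endothelial and lymphatic genes examined here are 10 zebrafish genes that mark blood and lymphatic vessels, taken by symbol from the 15336 genes listed in the count files. They comprise 4 receptors for vascular endothelial growth factors (*kdrl*, *kdr*, *flt1* and *flt4*), the receptor tyrosine kinases *tie1* and *tek*, the junction cadherin *cdh5*, and the scavenger and hyaluronan receptors *stab1*, *stab2* and *lyve1b*. All 10 passed the filter on low counts. The study compared whole larvae at 6 days post fertilization (dpf), with 3 libraries from wild-type larvae of the Tupfel long fin (TL) strain and 3 from *panx1a*-/- larvae, neither treated. The *panx1a*-/- line carries a small frameshifting deletion made with TALENs in a single founder of the same strain, so it represents 1 allele, and the larvae came from the third generation. *panx1a* encodes a pannexin, a membrane channel permeable to ATP. How many larvae went into a library, and whether they came from separate clutches, is not given in the sources used here, so the p-values measure the spread between these libraries only.

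Vessels grow when VEGF ligands bind receptor tyrosine kinases on endothelial cells. In zebrafish, Kdrl and Kdr are the receptors for VEGF-A that drive the sprouting of blood vessels, Flt1 binds VEGF-A and in its soluble form limits that sprouting, and Flt4 answers to Vegfc in veins and lymphatic vessels. Tek and Tie1 belong to the angiopoietin receptor pathway that stabilizes vessels, and Cdh5 (VE-cadherin) holds endothelial cells together at their junctions. Stab1 and Stab2 clear waste molecules from blood in venous and sinusoidal endothelium, and Lyve1b marks lymphatic endothelium and parts of the venous system.

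Depth was 17349457 to 21472044 gene reads per TL library and 13054759 to 17776115 per *panx1a*-/- library. Counts of the edited gene were 110, 114 and 147 in the wild type against 22, 17 and 13 in *panx1a*-/- larvae. All 9 markers of larval tissues that were looked up, from neurons, muscle, skin, liver, pancreas and eye, were detected, with *ins* lowest at 3 to 42 counts. Among blood markers listed apart, *mpl* had 0 counts in every library and *hbaa1* had 2 counts in TL replicate 2 only. Uniquely aligned reads that fell outside annotated genes made up 30.2% to 42.9% of the TL libraries, with TL replicate 1 highest, and 48.4% to 59.4% of the *panx1a*-/- libraries (exact permutation test, two-sided: p = 0.1, and 3 libraries against 3 can give no smaller value). Counting error on these shares is small (95% Wilson interval within 0.0176 percentage points), and such intervals cover counting error only. This share and the genotype cannot be told apart in these libraries.

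Of the vessel genes, *kdrl*, a VEGF-A receptor, was lower in *panx1a*-/- larvae by the test, at 0.437 times its TL level. *cdh5*, at 0.549 times, and *stab1*, at 1.81 times, did not pass the test although their libraries did not overlap between genotypes. The other 7 had fold changes from 0.798 to 1.16 and did not pass it either. A lack of overlap was common, at 47.5% of all tested genes, and *kdrl*, *tie1* and *lyve1b* showed it as well. Each gene is given as counts per 1000000 gene reads after TMM scaling (CPM), with the SD over 3 libraries per genotype. Differences are log2 fold changes of *panx1a*-/- against TL larvae from edgeR's quasi-likelihood test, and a gene was called at a Benjamini-Hochberg adjusted p below 0.05 over the 12797 genes tested. In that test, 21.6% of all tested genes were called. Genes called lower in *panx1a*-/- larvae made up 11.8% of all tested genes, and genes called higher made up 9.88% of all tested genes. Of the vessel genes, 1 of 10 was called, a share of 10%, which is not above this background. At an unadjusted p below 0.05 there were 3 of 10, against 43.7% of all tested genes. The libraries are from whole larvae, so fewer endothelial cells and less RNA per cell cannot be told apart.

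**Figure D1:**
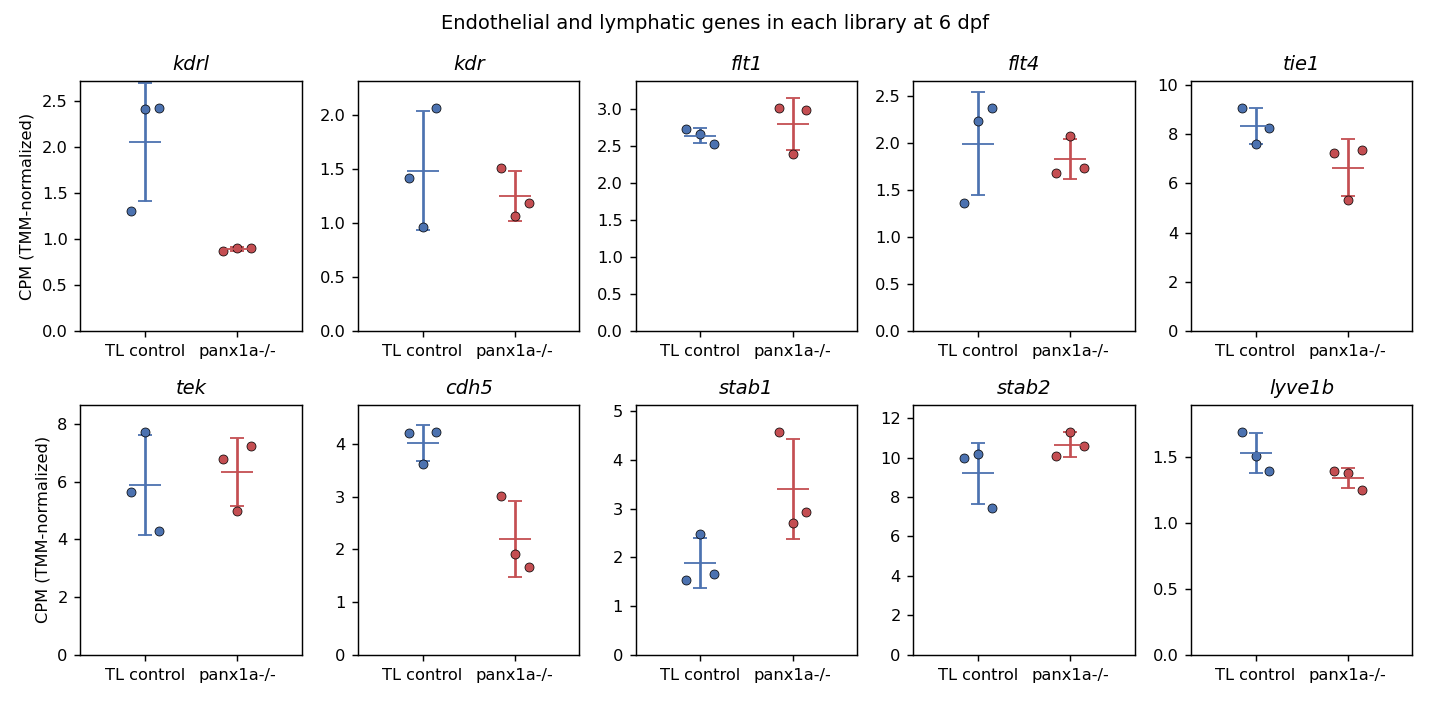
TMM-normalized CPM (vertical axis, from 0, with a scale of its own in each panel) of the 10 genes in each of the 3 TL control and 3 *panx1a*-/- libraries; points are libraries in the order of their replicate numbers, the short line is the mean and the bars are 1 SD. The *panx1a*-/- points lie below every TL point for *kdrl*, *cdh5*, *tie1* and *lyve1b* and above every TL point for *stab1*.

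Among the VEGF receptors, *kdrl*, whose promoter is widely used to label all blood vessels in zebrafish, had 24, 40 and 47 counts in TL replicates against 15, 17 and 13 in *panx1a*-/- replicates. These correspond to 1.31, 2.42 and 2.43 CPM against 0.869, 0.903 and 0.904 CPM. Every *panx1a*-/- library was below every TL library, and TL replicate 1 was the lowest of the controls. The mean fell from 2.05 ± 0.641 CPM to 0.892 ± 0.0196 CPM (SD over n = 3), or by 1.19 on the log2 scale (log2 fold change -1.19, standard error 0.34, 95% interval -1.98 to -0.41, adjusted p = 0.0451). The SD among the *panx1a*-/- libraries was 2.2% of their mean, whereas counting error alone amounts to 27.7% at 13 counts, so the closeness of these 3 values is tighter than the depth can resolve.

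The *kdrl* call was near the threshold. With a library left out it was kept only without TL replicate 1 (log2 fold change -1.43, adjusted p = 0.0152), and it was lost without TL replicate 2 (-1.07, adjusted p = 0.114), TL replicate 3 (-1.05, 0.152) or *panx1a*-/- replicate 1, 2 or 3 (-1.17, -1.20 and -1.20, with adjusted p of 0.119, 0.0643 and 0.136). Over all tested genes, calls fell from 2770 to 142 and 3 without TL replicates 2 and 3, and to 19 and 4 without *panx1a*-/- replicates 1 and 3. They numbered 4708 without TL replicate 1 and 3658 without *panx1a*-/- replicate 2. The *kdrl* call was also lost under scaling by library size alone (-0.94, adjusted p = 0.0795). With the share of reads outside genes as a covariate the log2 fold change was -0.29 (adjusted p = 0.999), in a fit that called 1 gene of all those tested. The direction was the same in all 15 alternatives.

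*kdr*, the second VEGF-A receptor, had 26, 16 and 40 counts in TL replicates against 26, 20 and 17 in *panx1a*-/- replicates, or 1.42, 0.967 and 2.06 CPM against 1.51, 1.06 and 1.18 CPM. The genotypes overlapped, since the highest and the lowest value were both TL libraries. The log2 fold change was -0.25 (standard error 0.36, 95% interval -1.09 to 0.58, adjusted p = 0.604). The width of that interval leaves room for a fall close to that of *kdrl*.

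*flt1* was the steadiest of the VEGF receptors, at 50, 44 and 49 counts in TL replicates against 52, 45 and 43 in *panx1a*-/- replicates. In CPM these were 2.73, 2.66 and 2.53 against 3.01, 2.39 and 2.99, and the TL values lay within the *panx1a*-/- range. The log2 fold change was 0.082 (standard error 0.24, 95% interval -0.46 to 0.63, adjusted p = 0.808), so the interval excludes a change as large as the *kdrl* estimate in either direction.

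*flt4*, the receptor of the lymphatic growth factor Vegfc, had 25, 37 and 46 counts in TL replicates against 29, 39 and 25 in *panx1a*-/- replicates. At 1.37, 2.24 and 2.37 CPM, the TL libraries enclosed the *panx1a*-/- values of 1.68, 2.07 and 1.74 CPM, and TL replicate 1 was again lowest. The log2 fold change was -0.12 (standard error 0.31, 95% interval -0.82 to 0.59, adjusted p = 0.784).

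**Figure D2:**
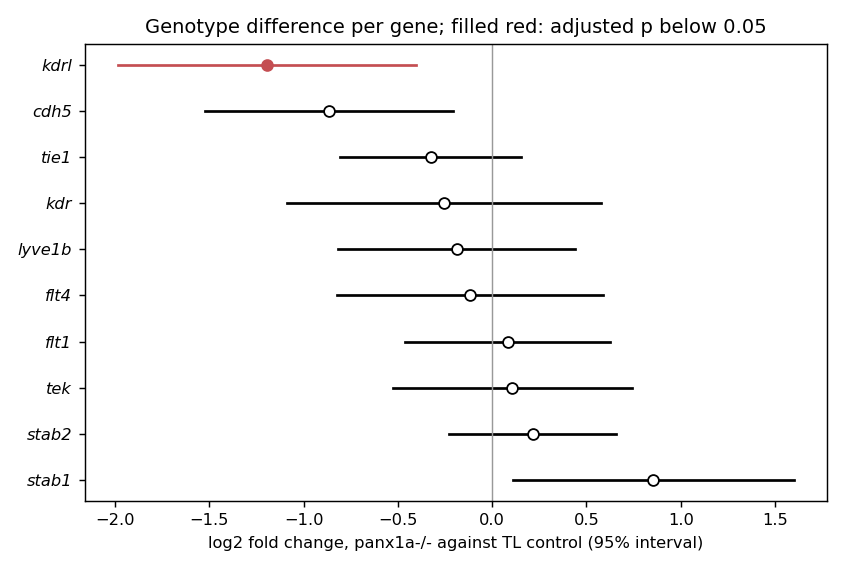
Log2 fold change of *panx1a*-/- against TL control (horizontal axis) for each gene, ordered by value, with its 95% interval as a line. *kdrl* at -1.19 is filled as the one gene with an adjusted p below 0.05; the intervals of *cdh5* (-0.87) and *stab1* (0.85) also leave out 0, and those of the other 7 genes include it.

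The ratio of 2 genes within a library does not depend on how libraries are scaled, so 6 such ratios were computed from the raw counts, chosen with the values of these genes known. The log2 ratio of *flt4* to *kdrl* was 0.059, -0.11 and -0.031 in TL replicates against 0.95, 1.20 and 0.94 in *panx1a*-/- replicates. The receptors thus drew about equal read numbers in every TL library, including TL replicate 1 where both were low, while *flt4* drew more in every *panx1a*-/- library. The mean shift was 1.06 on the log2 scale (exact permutation test, two-sided: p = 0.1, the lower limit here, and 0.2 after adjustment over the 6 ratios). The ratio of *flt1* to *kdrl* was 0.42 ± 0.56 in TL and 1.64 ± 0.21 in *panx1a*-/- libraries, and that of *kdrl* to *kdr* was 0.48 ± 0.75 and -0.47 ± 0.29 (log2, SD, n = 3 each; exact permutation test, p = 0.1 for each). Neither of these ratios overlapped between genotypes. Of all 45 pairs of the 10 genes, 22 had ratios that did not overlap, among them 7 of the 9 pairs of *kdrl*, 7 of 9 of *cdh5* and 7 of 9 of *stab1*, so a lack of overlap does not set the *flt4* to *kdrl* pair apart. For *cdh5* to *kdrl*, at 1.02 ± 0.58 and 1.25 ± 0.48, the genotypes overlapped (log2, SD, n = 3 each; exact permutation test, p = 0.5).

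**Figure D3:**
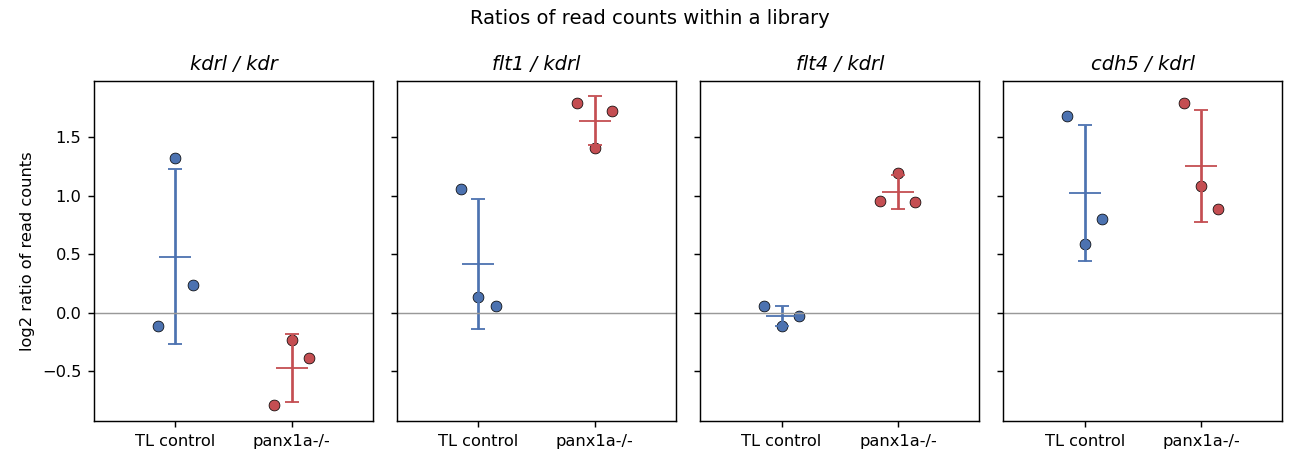
Log2 ratio of raw read counts (vertical axis) of the gene pair named above each panel, in each TL control and *panx1a*-/- library; points are libraries, the short line is the mean and the bars are 1 SD. *flt4* to *kdrl* lies between -0.11 and 0.059 in the TL controls and between 0.94 and 1.20 in *panx1a*-/- libraries, whereas *cdh5* to *kdrl* overlaps.

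The TIE receptors had more reads than the VEGF receptors, and neither passed the test. *tie1* had 166, 126 and 160 counts in TL replicates against 125, 100 and 106 in *panx1a*-/- replicates, or 9.06, 7.61 and 8.26 CPM against 7.24, 5.31 and 7.37 CPM. The *panx1a*-/- values were all lower, by a small step between 7.61 and 7.37 CPM, and the log2 fold change was -0.33 (standard error 0.21, 95% interval -0.81 to 0.16, adjusted p = 0.253). *tek*, which encodes the angiopoietin receptor itself, had 103, 128 and 83 counts against 117, 94 and 104, or 5.62, 7.74 and 4.28 CPM against 6.78, 4.99 and 7.23 CPM. The *tek* values of the genotypes overlapped widely (log2 fold change 0.11, standard error 0.28, 95% interval -0.53 to 0.74, adjusted p = 0.783). The log2 ratio of *tek* to *tie1* was -0.54 ± 0.50 in TL and -0.071 ± 0.038 in *panx1a*-/- libraries, with overlap (SD, n = 3 each; exact permutation test, p = 0.4).

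*cdh5*, the adhesion molecule of endothelial junctions, had 77, 60 and 82 counts in TL replicates against 52, 36 and 24 in *panx1a*-/- replicates. In CPM these were 4.20, 3.63 and 4.23 against 3.01, 1.91 and 1.67, with no overlap and with the TL libraries close to each other. The means were 4.02 ± 0.342 and 2.20 ± 0.717 CPM (SD over n = 3), and the log2 fold change was -0.87 (standard error 0.29, 95% interval -1.52 to -0.21). The unadjusted p was 0.0161 and the adjusted p was 0.0603, just outside the threshold. Of 15 alternatives, 4 put *cdh5* inside it (upper-quartile factors, DESeq2, edgeR's exact test and the replicate block, with adjusted p of 0.0474, 0.0490, 0.0300 and 0.0472), and none of the fits without a library did (adjusted p from 0.0833 to 0.186). Its log2 fold change with a library left out ran from -1.16 to -0.70.

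Among the scavenger receptors, *stab1* had 28, 41 and 32 counts in TL replicates against 79, 51 and 42 in *panx1a*-/- replicates, or 1.53, 2.48 and 1.65 CPM against 4.58, 2.71 and 2.92 CPM. All TL values lay under all *panx1a*-/- values, with *panx1a*-/- replicate 1 far above the other two and TL replicate 2 close below them. The log2 fold change was 0.85 (standard error 0.32, 95% interval 0.11 to 1.60, unadjusted p = 0.0293, adjusted p = 0.0823). Without *panx1a*-/- replicate 1 it was 0.58 (adjusted p = 0.265), and *stab1* was called only with library size as the scaling (1.11, adjusted p = 0.0493). *stab2* drew the most reads of the vessel genes, with 183, 168 and 144 counts against 174, 213 and 152. At 9.99, 10.2 and 7.43 CPM against 10.1, 11.3 and 10.6 CPM, its genotypes overlapped (log2 fold change 0.21, standard error 0.19, 95% interval -0.23 to 0.66, adjusted p = 0.405). The log2 ratio of *stab2* to *stab1* was 2.30 ± 0.36 in TL and 1.69 ± 0.48 in *panx1a*-/- libraries, with overlap (SD, n = 3 each; exact permutation test, p = 0.2).

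*lyve1b*, the lymphatic hyaluronan receptor, had 31, 25 and 27 counts in TL replicates against 24, 26 and 18 in *panx1a*-/- replicates. The values of 1.69, 1.51 and 1.39 CPM and of 1.39, 1.38 and 1.25 CPM did not overlap, but only by the step between 1.393 and 1.391 CPM. The log2 fold change was -0.19 (standard error 0.27, 95% interval -0.82 to 0.44, adjusted p = 0.610). Neither *lyve1b* nor *flt4*, which label lymphatic vessels, passed the test, and their intervals still allow falls to -0.82 on the log2 scale.

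Taken over all 10 genes, the summed level was 36.6 to 41.4 CPM in the TL controls and 34.1 to 40.2 CPM in the *panx1a*-/- libraries, with overlap. Of the reads on these genes, *kdrl* took 3.37% to 6.62% in the TL controls and 2.16% to 2.65% in the *panx1a*-/- libraries, and *cdh5* took 8.76% to 11.5% against 4.41% to 7.50%. *stab1* took 3.93% to 5.99% in TL and 7.72% to 11.4% in *panx1a*-/- libraries. The median log2 fold change was -0.15, with 6 genes below 0 and 4 above, beside a median of -0.063 over all tested genes with 53.2% of them below 0. When libraries were scaled by size alone, the median of the 10 genes turned to 0.080 and that of all tested genes to 0.17. The *panx1a*-/- libraries lay wholly below the TL libraries for 4 of the genes and wholly above for 1, where over all tested genes these shares were 24.1% and 23.4%. No member lay on the chromosome of *panx1a* in the RefSeq annotation of the GRCz12tu assembly. In that annotation 5 members (*kdr*, *tie1*, *cdh5*, *stab1* and *stab2*) share their span with another gene, among them the antisense transcript of *tie1*. The overlapping genes have no counts of their own under those symbols. How reads in the shared spans were assigned is not given in the sources used here.

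The mean profile of the 10 genes over the 6 libraries was almost flat, from -0.19 to 0.14 around its centre on the log2 scale. The closest genes to that profile among 11233 candidates were *lancl2*, a clone-named gene (zgc), *chmp6b*, *tcf7l1a* and *rtn4a*, with a root mean square difference from 0.032 to 0.048 on the log2 scale. None of them was called, with log2 fold changes from -0.17 to -0.12. By the same measure *lyve1b* (0.13) and *flt1* (0.14) were closest to the mean of the members and *stab1* (0.53), *kdrl* (0.52) and *cdh5* (0.42) farthest.

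Around these receptors, 85 further symbols of the vessel pathways were looked up in 6 lists, and 66 were tested. The others were absent from the genes counted or had too few reads. Of the 66, 7 were higher and 10 lower in *panx1a*-/- larvae by the test (25.8% called, against the 21.6% of all tested genes), with a median log2 fold change of 0.13. These 17 calls became 1 without TL replicate 2, 0 without TL replicate 3, *panx1a*-/- replicate 1 or *panx1a*-/- replicate 3, and 22 and 20 without TL replicate 1 and *panx1a*-/- replicate 2, so most of these calls needed each of TL replicates 2 and 3 and *panx1a*-/- replicates 1 and 3. Without any of those libraries, calls over all tested genes also fell, to between 3 and 142, so the loss is not particular to these lists.

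Among 8 tested VEGF ligands and co-receptors, only *nrp2b* was called (12.5%, against 21.6% of all tested genes). *nrp2b*, a neuropilin that binds VEGFs and semaphorins, rose from a TL mean of 51.4 ± 10.3 CPM to a *panx1a*-/- mean of 84.8 ± 5.26 CPM (SD over n = 3; log2 fold change 0.72, adjusted p = 0.0380). The co-receptors *nrp2a* and *nrp1a* had log2 fold changes of 0.15 and -0.088 (adjusted p = 0.453 and 0.781). The co-receptor *nrp1b* was at -0.89, with overlap between genotypes and without a call (adjusted p = 0.0659). *vegfaa*, a VEGF-A ligand, was at 2.17 CPM in TL and 0.982 CPM in *panx1a*-/- larvae, without overlap and without a call (log2 fold change -1.12, adjusted p = 0.0520), and it was singled out after its values were seen. The other VEGF-A gene of the list, *vegfab*, had more reads, at 12.5 CPM in TL and 13.8 CPM in *panx1a*-/- larvae. Its genotypes overlapped (log2 fold change 0.15, adjusted p = 0.650). The lymphatic ligand *vegfc* was at 2.23 and 2.63 CPM (adjusted p = 0.468). *ccbe1*, which is needed for Vegfc activation, was at 0.47 on the log2 fold change scale (adjusted p = 0.214), and *ptprb*, a phosphatase of endothelial junctions that acts on TIE receptors, at -0.034 (adjusted p = 0.893). *ccbe1* and *ptprb* were the only tested genes of their lists. Of the others in these lists, 1 and 3 had too few reads, and 2 and 1 were absent from the genes counted.

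Of 21 tested endothelial transcription factors, 3 were higher and 2 lower by the test (23.8%, against 21.6% of all tested genes). *npas4l*, the factor at the top of endothelial and blood specification in the zebrafish embryo, had 41, 36 and 34 counts in TL replicates against 105, 100 and 92 in *panx1a*-/- replicates. It rose from a TL mean of 2.06 ± 0.263 CPM to a *panx1a*-/- mean of 5.93 ± 0.557 CPM (SD over n = 3; log2 fold change 1.53, standard error 0.23, adjusted p = 0.0255). *gata2a* (1.02, adjusted p = 0.0365) and *mef2cb* (0.88, adjusted p = 0.0461) were also higher. *klf2b*, of a family induced by blood flow, fell from a TL mean of 34.1 ± 13.5 CPM to a *panx1a*-/- mean of 10.6 ± 5.62 CPM (SD over n = 3; log2 fold change -1.68, adjusted p = 0.0391). *mafbb* fell as well (-0.74, adjusted p = 0.0401). Its relative *mafba* went the other way without a call (0.64, adjusted p = 0.0679), with every *panx1a*-/- library above every TL library. The values of all these factors are from whole larvae and are not limited to endothelium. *klf2a*, the relative of *klf2b*, was at -1.07 and overlapped between genotypes (adjusted p = 0.200). *nr2f2*, a factor of venous identity, overlapped as well at 0.62 (adjusted p = 0.110). The ETS factors of the list, which drive endothelial genes, and its lymphatic factors of the *prox1* pair are named here outside the rule. The ETS factors *etv2*, *fli1a*, *fli1b* and *erg* had log2 fold changes from -0.18 to 0.30 and overlapped between genotypes, whereas *ets1* was at -0.47 with every *panx1a*-/- library below every TL library (adjusted p = 0.270). *prox1a* was at 0.27 with overlap (adjusted p = 0.409), and *prox1b* was at 0.40 with its *panx1a*-/- values all above the TL values (adjusted p = 0.119).

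Among 25 tested junction and surface genes of endothelium, 2 were higher and 3 lower by the test (20%, against 21.6% of all tested genes). *pecam1*, an adhesion molecule of vessels, had 84, 127 and 130 counts in TL replicates against 60, 52 and 52 in *panx1a*-/- replicates, so that it fell by 0.95 on the log2 scale (adjusted p = 0.0427, standard error 0.26). *cav1*, the coat protein of caveolae, fell from a TL mean of 18.6 ± 6.65 CPM to a *panx1a*-/- mean of 4.48 ± 1.51 CPM (SD over n = 3; -2.04, adjusted p = 0.0274), and *ccm2*, which steadies vessel junctions, fell by 1.78 on the log2 scale (adjusted p = 0.0279). *s1pr1* (0.89, adjusted p = 0.0339) and the apelin receptor *aplnrb* (0.82, adjusted p = 0.0345) were higher. The abundant genes *aqp1a.1* (0.37, adjusted p = 0.144) and *podxl* (0.048, adjusted p = 0.840) were not called. *cav1* and *s1pr1* are also made by many cells outside vessels.

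Of 10 tested genes of arteries and veins, 1 was higher and 5 were lower by the test (60%, against 21.6% of all tested genes). This short list was chosen with earlier results of these data known. *dab2*, an endocytic adaptor of veins that the absorbing cells of the gut also make in zebrafish, fell by 1.78 on the log2 scale (adjusted p = 0.0331). *notch1b* (-1.33, adjusted p = 0.0380), *nrarpb* (-1.12, adjusted p = 0.0420), *hey1* (-0.78, adjusted p = 0.0325) and *notch1a* (-0.77, adjusted p = 0.0494), all of the Notch pathway and active also in the nervous system, were lower. The arterial Notch ligand *dll4* was higher (0.71, adjusted p = 0.0362), while *nrarpa* (-0.022, adjusted p = 0.918) and *ephb4a* (0.18, adjusted p = 0.489) did not pass the test. These 6 calls became 1 under scaling by library size alone and 0 with the share of reads outside genes as a covariate. They became 1 without TL replicate 2 and 0 without TL replicate 3, *panx1a*-/- replicate 1 or *panx1a*-/- replicate 3, where calls over all tested genes also fell to between 3 and 142. The artery and vein calls were 5 without TL replicate 1 or *panx1a*-/- replicate 2.

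**Figure D4:**
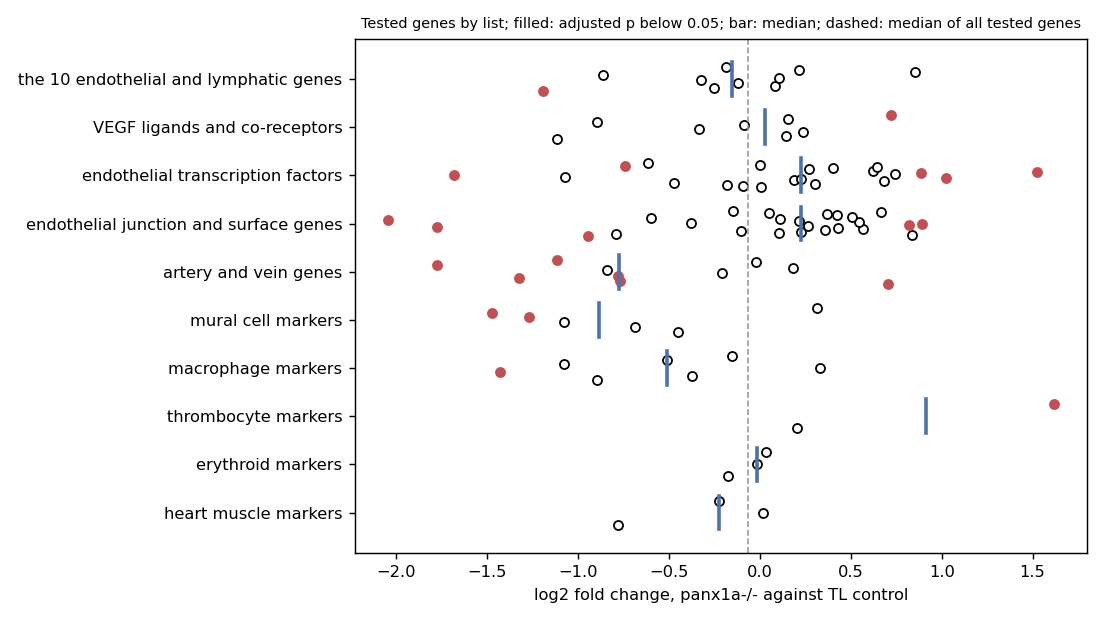
Log2 fold change of *panx1a*-/- against TL control (horizontal axis) for each tested gene of the 10 vessel genes, of 4 related lists and of 5 marker lists; filled points have an adjusted p below 0.05, the blue bar is the median of a list and the dashed line the median of all tested genes (-0.063). The lymphatic processing and angiopoietin lists, with 1 tested gene each, are not drawn. The artery and vein genes lie around a median of -0.77, and the transcription factors and surface genes spread to both sides of 0.

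Markers of cells that lie next to vessels or share their origin were also measured. The shares called were 33.3% of the mural, 14.3% of the macrophage and 50% of the thrombocyte markers tested, in lists of 6, 7 and 2 genes, against 21.6% of all tested genes. Of 6 tested markers of mural cells, the contractile cells around vessels, 2 were lower by the test, *abcc9* (-1.47, adjusted p = 0.0279) and *notch3* (-1.27, adjusted p = 0.0312). Their summed level was 108 to 336 CPM in the TL controls and 113 to 118 CPM in the *panx1a*-/- libraries, with *tagln* (-1.08, adjusted p = 0.156) and *acta2* (-0.69, adjusted p = 0.278) uncalled and *kcnj8* at 0 in at least 1 library. The mural marker *myh11a* went the other way (0.31, adjusted p = 0.263), against 5 tested markers below 0. Of 7 tested macrophage markers, *csf1ra*, the receptor for colony-stimulating factor, was called lower (-1.43, adjusted p = 0.0321), *lcp1* was at -1.08 (adjusted p = 0.0607) and *coro1a* at -0.51 (adjusted p = 0.131). *spi1b* was at 0.33 with overlap (adjusted p = 0.385), against 6 markers below 0. The macrophage sum was 46.7 to 57.5 CPM in TL and 29.2 to 47.3 CPM in *panx1a*-/- libraries. Of 2 tested thrombocyte markers, *fermt3b* was higher (1.62, adjusted p = 0.0296) and *gp1bb* was not called (0.20, adjusted p = 0.665), with a list sum of 2.17 to 3.81 CPM in TL and 4.73 to 5.51 CPM in *panx1a*-/- libraries and *mpl* at 0 in every library. *fermt3b* itself had a mean of 0.877 CPM in TL and 2.70 CPM in *panx1a*-/- libraries. *itga2b*, with too few reads to be tested, went the other way with overlap, at 10, 10 and 6 counts in TL replicates against 8, 3 and 3 in *panx1a*-/- replicates. The 3 tested erythroid markers (*slc4a1a* and *alas2* at -0.015 and -0.17; sum 7.90 to 10.6 CPM in TL and 6.32 to 11.8 CPM in *panx1a*-/- libraries) and the 3 tested heart muscle markers (*tnnt2a* and *myl7* at -0.22 and -0.78; sum 4.97 to 11.2 and 4.09 to 7.65 CPM) gave 0 calls in edgeR's quasi-likelihood test, 0 at an unadjusted p below 0.05, and 0 with DESeq2. Over all tested genes these shares were 21.6%, 43.7% and 31.4%. The 95% intervals were wide, such as -1.23 to 1.20 for *slc4a1a* and -1.85 to 0.29 for *myl7*. These 0 calls therefore do not show that the levels were unchanged. Of the untested erythroid markers, *gata1a* was at 0 in *panx1a*-/- replicates 1 and 3. *hbaa1* had 2 counts in TL replicate 2 and 0 in the other libraries. The calls in the mural, macrophage and thrombocyte lists numbered 0 without TL replicate 2, TL replicate 3, *panx1a*-/- replicate 1 or *panx1a*-/- replicate 3. Those fits held only 3 to 142 calls over all tested genes. Whether these cells had a part in the values of *kdrl*, *cdh5* or *stab1* was not tested. Of 9 tested markers of the larva as a whole, 44.4% were called, against 21.6% of all tested genes, and 8 were below 0. *krt4* of skin (-2.44, adjusted p = 0.0289), *prss1* of pancreas (-2.35, adjusted p = 0.0490) and *mylpfa* of fast muscle (-1.81, adjusted p = 0.0354) were lower by the test. *rho* of rods (1.28, adjusted p = 0.0425) was higher. *prss1* had 563, 3237 and 570 CPM in TL replicates against 323, 263 and 269 CPM in *panx1a*-/- replicates. *fabp10a* of liver (-1.92, adjusted p = 0.0682), *ckma* (-1.41) and *apoa1b* (-1.01) were not called.

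**Figure D5:**
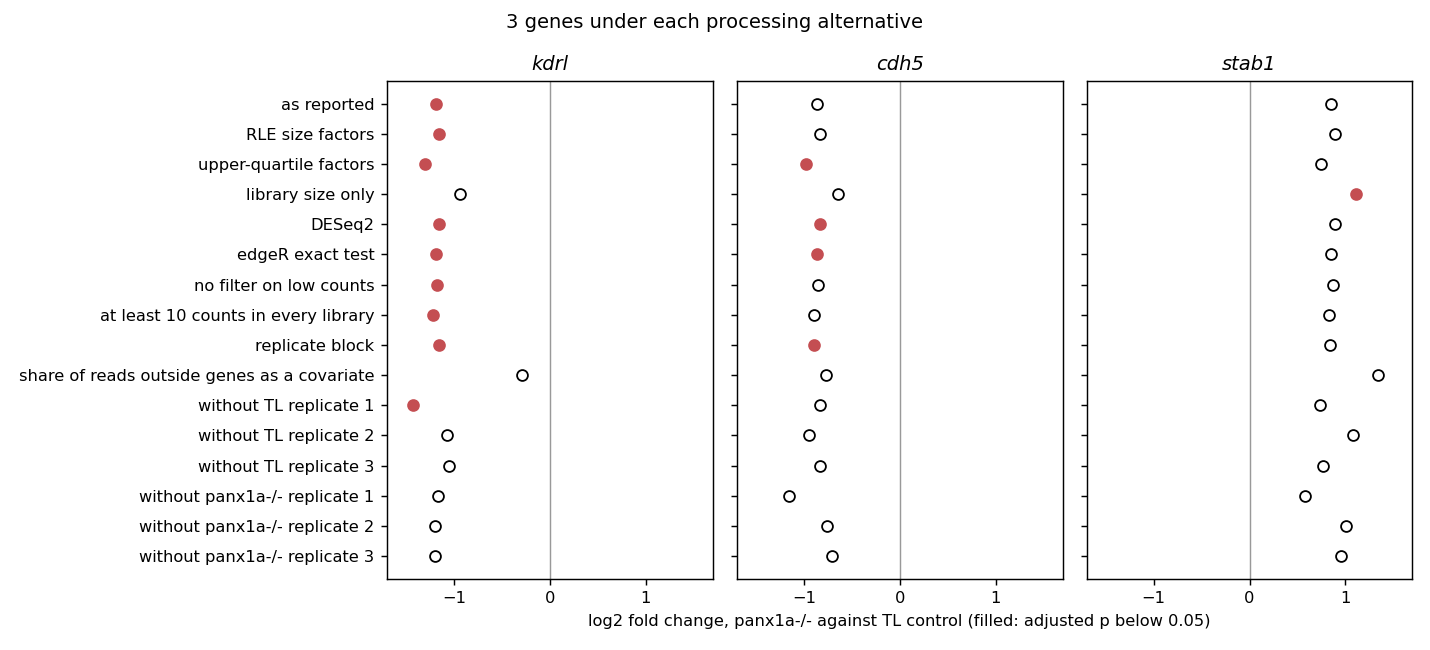
Log2 fold change of *panx1a*-/- against TL control (horizontal axis) for *kdrl*, *cdh5* and *stab1* as reported and under each of 15 processing alternatives (rows); filled points have an adjusted p below 0.05. *kdrl* and *cdh5* stay below 0 and *stab1* above 0 in every row, and the calls come and go with the setting.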

How the data were processed

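The deposited files hold unnormalized gene counts, 1 file per library, as HTSeq-count writes them. The submitters' processing notes name Trim Galore 0.4.4, TopHat2 2.0.11, HTSeq 0.6.1p2 and the build danRer11. The annotation and strand setting are not given in the sources used here. Rows of unassigned reads were kept out of library sizes, and those outside genes are given in the report.

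Counts were analysed in R 4.3.3 with edgeR 4.0.16 (default filter, TMM, robust quasi-likelihood test, genotype as the only factor, Benjamini-Hochberg adjustment over all tested genes). Intervals come from the test's standard error and degrees of freedom. Libraries of a genotype differed by more than sampling noise and were all kept. The fits were run on simulated counts with as many genes raised as lowered and no scaling difference beyond depth. The covariate fit was not required to recover the changes there, so that run does not vouch for it. Alternatives were DESeq2 1.42.0, edgeR's exact test, other scalings and filters, the replicate block, the share of reads outside genes as a covariate, and leaving out each library.

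The members and lists were chosen with earlier results of these data known. Members were all named. From each other list, up to 4 called genes with the largest change and up to 2 uncalled genes with the most reads were named, plus *vegfaa*, *vegfab*, *vegfc*, *nrp1b*, *mafba*, *mafbb*, *aplnrb*, *notch1a*, *dll4*, *myh11a*, *spi1b*, *itga2b* and the factors said to stand outside the rule, added after their values were seen. *fabp10a* and *ins* were added in the same way. No sequences were used here.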

Additional observations from a re-analysis of the deposited data

How the results depend on the processing

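The number of calls depended on the setting, and changes of direction were counted for the vessel genes only. Of all tested genes, 2770 were called, against 1633 with library size only and 1 with the share of reads outside genes as a covariate, and from 3 (without TL replicate 3) to 4708 (without TL replicate 1) with a library left out, with 142 without TL replicate 2 and 19 and 4 without *panx1a*-/- replicates 1 and 3. Called vessel genes numbered 1, against 2 with upper-quartile factors, DESeq2, edgeR's exact test or the replicate block, 0 with the covariate (0 also at an unadjusted p below 0.05), and 0 to 1 with a library left out. In the related lists 17 genes were called, against 9 with library size only, 0 with the covariate and 0 to 22 with a library left out. Calls to the higher side made up 45.6%, against 31.2% under upper-quartile scaling and 62.8% under library size alone, which move the median log2 fold change of all tested genes by -0.11 and 0.23.

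Of 150 refitted log2 fold changes of the vessel genes, 128 kept direction and side of the threshold, 5 gained a call, 7 lost one and 10 changed sign. The latter, all uncalled, were *flt1* with upper-quartile factors (-0.029) and the covariate (-0.15), *flt4* with library size only (0.13) and the covariate (0.72), *tek* with upper-quartile factors (-0.0045) and the covariate (-0.078), *lyve1b* with library size only (0.033), and, without TL replicate 3, *kdr*, *flt4* and *tek*, whose values with a library left out ran from -0.49 to 0.062, -0.32 to 0.030 and -0.078 to 0.34. The cause was not tested. Of 180 refitted counts over single lists, 122 stayed within 1.5 times, 44 were lower and 14 higher. The 122 include all refits of the lymphatic processing, angiopoietin, erythroid and heart muscle lists, which held 0 calls in every fit.

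Both genotypes carry the numbers 1 to 3, with nothing to say that they pair libraries. Across genes, the deviations of libraries from their genotype's mean correlated at 0.12, 0.30 and 0.078 for equal numbers, but TL replicate 1 correlated best with *panx1a*-/- replicate 3 (0.14). The replicate block gave 3882 calls. Counts from 13 to 213 limit the precision of the vessel genes.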
